A study of Mus musculus with 6 samples.

Results

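The broad domains with least H3K9me2 were taken from ChIP-seq of mouse embryonic stem cells (ESCs) as autosomal windows of 100 kb. In each window the level of a mark was the mean of observed over expected reads over the 2 kb tiles that were kept, so that 1 is the level of a library spread evenly over the genome. Tiles without reads in both H3K9me2 libraries and tiles with a log2 value above 4 in either were left out, and a window needed at least 40 tiles. The 10% of windows with the lowest mean of the 2 H3K9me2 libraries were taken, which gave 2360 of 23602 scored windows. They are called low-H3K9me2 windows here and the remaining 21242 are called the other windows. The members were thus chosen by their measured H3K9me2 levels, and these levels are a description only.

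Dicer KO ESCs, in which both copies of Dicer were removed, and Dicer KO/Dnmt1 cKO ESCs, which lack Dnmt1 in addition, were each profiled once for H3K9me2, once for H3K27me3 and once for H3K9me3. In the following, paired values give the Dicer KO first. The labels give strain E14 for both genotypes, whereas the methods derive the lines from C57BL/6 ESCs that carry floxed Dnmt1 alleles. Dicer was deleted with CRISPR/Cas9 in cells grown from single colonies and Dnmt1 by a Cre that tamoxifen activates, so the control cells also lack Dicer and carry the floxed Dnmt1. The time after the deletion of Dnmt1 was not given in the labels of these samples. The H3K9me2 libraries held 16834940 and 20503709 reads in all tiles, the H3K27me3 libraries 27162045 and 21280804, and the H3K9me3 libraries 18155478 and 18931477. As each genotype has a single library of a mark, no difference has a replicate check, no test was made, and all intervals are 95% intervals for counting error only. Windows, tiles and genes of the same library are not replicates.

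H3K9me2 is written mainly by the methyltransferases EHMT2 (G9a) and EHMT1 (GLP), which act as a pair. In mouse cells it covers most of the silent genome at a moderate, even level, and it is poor over active genes. H3K27me3 is written by Polycomb repressive complex 2 at CpG-rich promoters of silent developmental genes, and H3K9me3 marks retrotransposons, satellites and many zinc finger genes. DICER processes precursors of small RNAs, and DNMT1 maintains DNA methylation when DNA is copied. These marks are repressive and do not measure expression, so the cell type given by the labels could not be checked against marker genes.

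The sequences before 4 start sites show what kinds of promoters the low-H3K9me2 windows held. They are the 250 bases before the annotated start of Polr2a, the largest subunit of RNA polymerase II, of Dot1l, the methyltransferase of H3K79, of Tlx2, a homeobox gene with the highest H3K27me3 among the genes named by the rule, and of Vmn1r119, a vomeronasal receptor gene in 1 of the 3 windows with the least H3K9me2. Polr2a and Dot1l were picked after their values were seen, as a housekeeping gene and as a gene of the longest stretch of low-H3K9me2 windows outside chromosome 17. Coordinates are from NCBIM37, each sequence is written 5′ to 3′ on the strand of its gene, CG dinucleotides are in capitals, and none of the 4 stretches overlapped an annotated exon.
Polr2a (chr11:69572140-69572389, minus strand): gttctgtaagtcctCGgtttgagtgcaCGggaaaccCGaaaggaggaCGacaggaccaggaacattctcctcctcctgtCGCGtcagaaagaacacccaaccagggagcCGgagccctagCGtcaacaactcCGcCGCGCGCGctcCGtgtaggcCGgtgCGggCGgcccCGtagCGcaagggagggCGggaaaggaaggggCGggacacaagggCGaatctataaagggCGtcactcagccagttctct
Dot1l (chr10:80217701-80217950, plus strand): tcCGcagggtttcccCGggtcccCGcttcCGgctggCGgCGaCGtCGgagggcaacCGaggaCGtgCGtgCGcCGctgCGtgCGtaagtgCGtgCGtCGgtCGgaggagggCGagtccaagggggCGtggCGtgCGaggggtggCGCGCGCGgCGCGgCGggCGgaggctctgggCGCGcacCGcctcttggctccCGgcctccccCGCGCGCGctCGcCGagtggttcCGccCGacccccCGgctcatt
Tlx2 (chr6:83020288-83020537, minus strand): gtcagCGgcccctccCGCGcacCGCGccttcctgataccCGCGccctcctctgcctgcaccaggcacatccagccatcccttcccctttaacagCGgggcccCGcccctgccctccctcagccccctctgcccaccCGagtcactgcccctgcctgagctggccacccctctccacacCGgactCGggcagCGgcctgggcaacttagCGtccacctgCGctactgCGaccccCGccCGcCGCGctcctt
Vmn1r119 (chr7:21797475-21797724, minus strand): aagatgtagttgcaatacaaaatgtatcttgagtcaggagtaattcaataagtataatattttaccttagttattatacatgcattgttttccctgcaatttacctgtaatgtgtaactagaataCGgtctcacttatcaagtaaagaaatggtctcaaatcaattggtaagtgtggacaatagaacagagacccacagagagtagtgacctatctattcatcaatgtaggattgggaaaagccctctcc
The 250 bases held 23 CG dinucleotides before Polr2a, 44 before Dot1l, 20 before Tlx2 and 1 before Vmn1r119. The first 3 are CpG-dense promoters and the last is not. Of the 3 CpG-dense ones, only Tlx2 stood in a start tile with high H3K27me3. The H3K27me3 level of the tile with the start site was 0.244 at Polr2a, 0.139 at Dot1l and 7.39 at Tlx2, as the mean of both libraries.

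A stretch of the genome stood apart in all 6 libraries and is described before the other results. Chromosome 17 dropped to a lower level from position 74300001 to its end, a split that was looked for after the values were seen. In the Dicer KO the median H3K9me2 level was 0.847 over the 697 windows before the step and 0.445 over the 208 windows after it, and with Dnmt1 deleted these medians were 0.832 and 0.447. For H3K27me3 the medians went from 0.783 to 0.351 and from 0.786 to 0.360, and for H3K9me3 from 0.814 to 0.425 and from 0.808 to 0.421. All 3 marks were thus lower together, in both genotypes. The log2 differences of H3K9me2 were -0.93 and -0.90, those of H3K27me3 were -1.16 and -1.13, and those of H3K9me3 were both -0.94. With the 6 libraries averaged to 1 level per window, the log2 difference of the medians after and before the step was -1.003, and the split found in the same way on chromosome 11, the chromosome with the next lowest value, gave -0.10. Upward, the largest value of this kind was 0.50, on chromosome 14 from position 94100001. There all 6 libraries were higher together, and none of the 311 windows was a member. Of the 208 windows after the step, 193 (92.8%) were low-H3K9me2 windows, against 111 of 697 (15.9%) before it. These 193 held 0.49 protein-coding genes per window and had a median GC content of 41.0% over the whole segment, so they do not resemble the gene-rich members elsewhere. DNA copy number was not measured here, and what the step on chromosome 17 owes to it was not tested. The 2167 members outside this segment are therefore given separately wherever the segment would move a value.

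**Figure D1:**
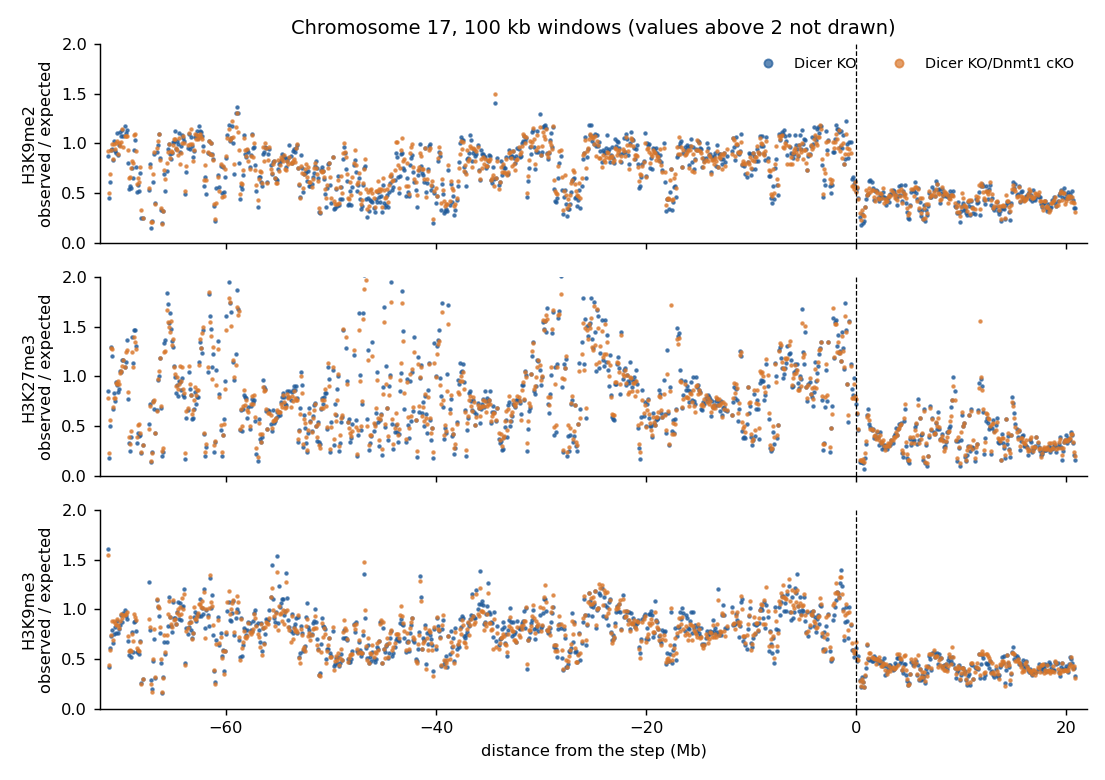
Level of H3K9me2, H3K27me3 and H3K9me3 in 100 kb windows along chromosome 17, as observed over expected reads on the y axis against distance in Mb from the step on the x axis, in the 2 genotypes. In every library the level after the step lay near the lower of the medians, for example 0.445 against 0.847 for H3K9me2 in the Dicer KO.

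Low-H3K9me2 windows were low in the other marks too. No input library was used to scale these levels, and what the shared low levels owe to read coverage was not tested. The median H3K9me2 level of the members was 0.427 and 0.486, against 0.895 and 0.886 in the other windows, which is what the choice of windows fixed. The median H3K27me3 level, which the choice did not use, was 0.372 and 0.407 in the members and 0.823 and 0.818 in the other windows. The median H3K9me3 level was 0.512 and 0.522 in the members and 0.828 and 0.821 in the other windows. H3K27me3 was thus about as far below the other windows as H3K9me2, and H3K9me3 less far. As means over all kept tiles, the members lay below the other windows by a log2 difference of -0.91 and -0.87 for H3K27me3 and -0.68 and -0.67 for H3K9me3. Outside the distal segment of chromosome 17 the differences were -0.89 and -0.84 for H3K27me3 and -0.65 in both genotypes for H3K9me3. The members held between 4.63% and 5.94% of the reads of each library, although they are 10% of the windows. When tiles without reads were kept, the log2 differences, as means of both genotypes, were -1.64 for H3K27me3 and -1.39 for H3K9me3 in place of -0.89 and -0.68. When windows were instead chosen by H3K9me2 over the mean of the other 2 marks, H3K27me3 was higher in the chosen windows by 0.71 and H3K9me3 by 0.008.

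**Figure D2:**
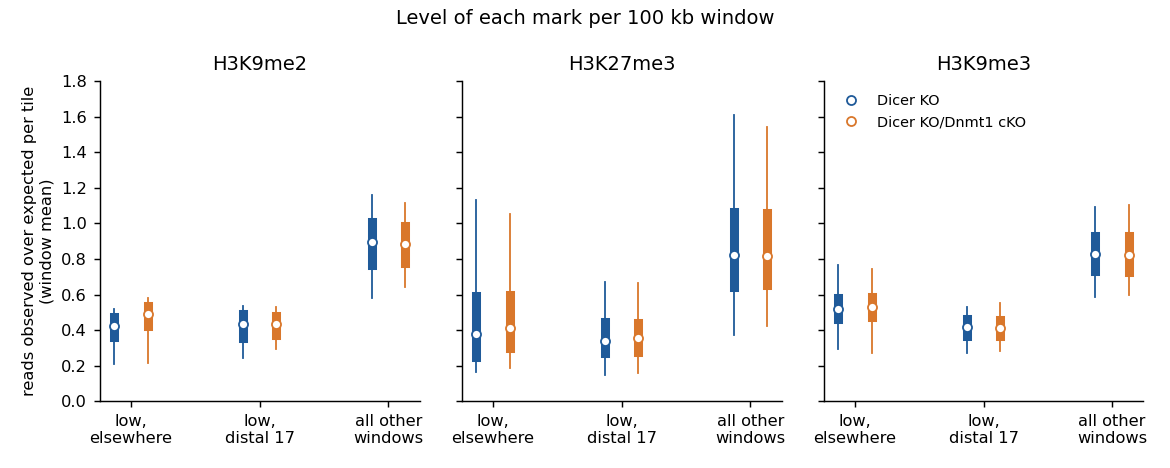
Level of each mark per 100 kb window (observed over expected reads, y axis) in the 2 genotypes for low-H3K9me2 windows elsewhere, for those in the distal segment of chromosome 17 and for the other windows, with open circles for medians, thick bars from the 25th to the 75th percentile and lines from the 5th to the 95th. The members lie lower than the other windows for every mark, with medians outside the segment of 0.377 against 0.823 for H3K27me3 in the Dicer KO.

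The rule cuts a continuous range and marks no gap. The members just inside it were the window at chr2:120600001-120700000 with Ttbk2, a kinase needed for cilia, and Ubr1, a ubiquitin ligase, at an H3K9me2 level of 0.525 and 0.572, and the window at chr17:80100001-80200000 with Cyp1b1, a cytochrome P450, at 0.554 and 0.543. Just outside lay chr5:3400001-3500000 with Cdk6, a kinase of the cell cycle, at 0.512 and 0.585. The limit itself was a mean level of 0.548.

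Among the members, the other marks were low together in many windows but not in all. H3K9me3 was in its own lowest 10% of all scored windows in 1711 members (72.5%), and H3K27me3 in 1250 members (53.0%). Both were so in 1018 members (43.1%), against 5.46% of all scored windows. Neither was in 417 members (17.7%), against 85.5% of all scored windows. H3K27me3 exceeded the median of all windows in 275 members (11.7%) and stood in its highest 10% in 59 (2.50%), whereas H3K9me3 exceeded its median in 76 (3.22%). The members are thus a mixed set. H3K27me3 varied more than H3K9me3 among them, as it did over all scored windows. H3K27me3 levels of the members ran from 0.164 at the 5th percentile to 1.106 at the 95th in the Dicer KO, and H3K9me3 levels from 0.288 to 0.754. Over all scored windows the same percentiles were 0.287 and 1.585 for H3K27me3 and 0.503 and 1.085 for H3K9me3.

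Sorted by H3K27me3, the 2167 members outside the distal segment of chromosome 17 fell into classes that differed in base composition and in gene number. The 1118 members (51.6%) with H3K27me3 in its lowest 10% had a median H3K27me3 level of 0.277, a GC content of 43.7% and 2.26 protein-coding genes per window. The 778 members (35.9%) from there to the median of all windows had a level of 0.532, a GC content of 47.3% and 3.19 genes. The 213 members (9.83%) from the median to the highest 10% had a level of 0.968, a GC content of 50.2% and 3.69 genes. In the 58 members (2.68%) in the highest 10%, the level was 1.52 and the GC content 51.1%, and 81.0% held a CpG-rich tile, meaning a tile with a GC content of at least 55% and an observed over expected CpG ratio of at least 0.6. H3K9me2 itself had medians between 0.437 and 0.486 in these classes. The choice of windows held it at or under 0.548 in every member, so it could differ little between classes. Higher H3K27me3 at higher GC content was not particular to the members. In the other windows the median H3K27me3 level was 0.704 at a GC content from 30% to 38% and 1.51 from 50% to 60%.

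A smaller class was nearly empty of all 3 marks. In 197 members outside the segment (9.09%) the H3K9me2 level was under 0.3, with medians of 0.193 for H3K9me2, 0.186 for H3K27me3 and 0.270 for H3K9me3. Their median number of kept tiles was 47 of 50, and their GC content was 42.1%. The 3 members with the least H3K9me2 held predicted genes or a vomeronasal receptor gene, a family of pheromone receptors that occurs in clusters of similar copies. The window at chr14:42800001-42900000, with the predicted genes Gm7995, Gm9611 and Gm17026, had H3K9me2 levels of 0.089 and 0.099, H3K27me3 levels of 0.101 and 0.107, and H3K9me3 levels of 0.145 and 0.156. The window at chr7:10000001-10100000, with Gm3675 and Gm4073, had 0.093 and 0.101, 0.081 and 0.079, and 0.107 and 0.114 in the same order. In the third, chr7:21700001-21800000 with Vmn1r119, the values were 0.099 and 0.095, 0.085 and 0.123, and 0.190 and 0.151. All 6 libraries were low in each of these windows, and they kept only 40 to 42 tiles. The authors discarded reads of low mapping quality, and how far that lowered the levels of similar copies was not tested. The members with the least H3K27me3 lay at chr13:66700001-66800000 and 2 windows close to it with Zfp640 and vomeronasal pseudogenes, and those with the least H3K9me3 lay on chromosome 14 with Gm2956, Gm3629 and Gm2916.

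At the other end, members with little H3K9me2 and much H3K27me3 included Hox clusters. The 2 windows given here were named by the rule for the highest H3K27me3. The window at chr2:74500001-74600000 holds Hoxd3 to Hoxd13, homeobox genes that set position along the body axis, and had H3K27me3 levels of 4.43 and 3.29 beside H3K9me2 levels of 0.420 and 0.489. The window at chr11:96100001-96200000 with Hoxb3 to Hoxb9 had H3K27me3 levels of 3.72 and 2.84 beside H3K9me2 levels of 0.332 and 0.351. H3K27me3 was lower in the Dicer KO/Dnmt1 cKO in both, while H3K9me2 was slightly higher. The log2 changes of H3K27me3 were -0.43 (-0.49 to -0.37) and -0.39 (-0.45 to -0.32).

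Not every window of the Hox clusters was a member. Of 40 annotated Hox genes, with Hoxa3 counted as 2 entries, 28 had their midpoint in a low-H3K9me2 window (70.0%), against 29.2% of all protein-coding genes (6098 of 20892). The window of Hoxa13 had H3K9me2 levels of 0.438 and 0.560. Both windows of the Hoxc cluster lay outside the rule, the one with Hoxc4 to Hoxc9 narrowly, at 0.527 and 0.576, and the one with Hoxc10 to Hoxc13 at 0.837 and 0.845. The Hoxc windows had H3K27me3 levels of 3.89 and 3.02, and 3.496 and 2.81. High H3K27me3 thus stood beside low H3K9me2 at Hoxa13, at Hoxb3 to Hoxb9 and at Hoxd3 to Hoxd13 and beside H3K9me2 near the level of the other windows at Hoxc10 to Hoxc13.

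H3K9me3 was high in few members. The highest levels were 1.42 and 1.28 at chr13:3400001-3500000 and 1.43 and 1.24 at chr12:20200001-20300000, where no protein-coding gene is annotated. The third, chr10:82800001-82900000, had 1.35 and 1.30 and holds D10Wsu102e and Slc41a2, a magnesium transporter gene.

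Outside the distal segment of chromosome 17, low-H3K9me2 windows were rich in genes. They held 2.77 protein-coding genes per window, against 0.696 in the other windows, and the median share of a window covered by genes was 69.4% against 21.2%. No protein-coding gene lay in 9.23% of these members and in 59.3% of the other windows. The genes themselves were shorter, with a median length of 12661 bp against 17943.5 bp. The distal segment differed, with a median gene length of 32814 bp in its members and no protein-coding gene in 64.8% of them.

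Outside the distal segment, the share of windows that were members was higher the more genes a window held. Of windows there without a protein-coding gene midpoint, 200 of 12781 (1.56%) were members, of those with 1 gene 489 of 5767 (8.48%), and of those with 2 genes 498 of 2383 (20.9%). With 3 to 4 genes the share was 34.1%, with 5 to 9 genes 52.5%, and with 10 or more genes 28 of 35 (80.0%). The median H3K9me2 level over these classes went from 0.922 to 0.389 and that of H3K9me3 from 0.851 to 0.482. H3K27me3 varied less, from 0.822 without genes to 0.731 with 10 or more, so the most gene-rich windows stood apart in H3K9me2 and H3K9me3 more than in H3K27me3.

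**Figure D3:**
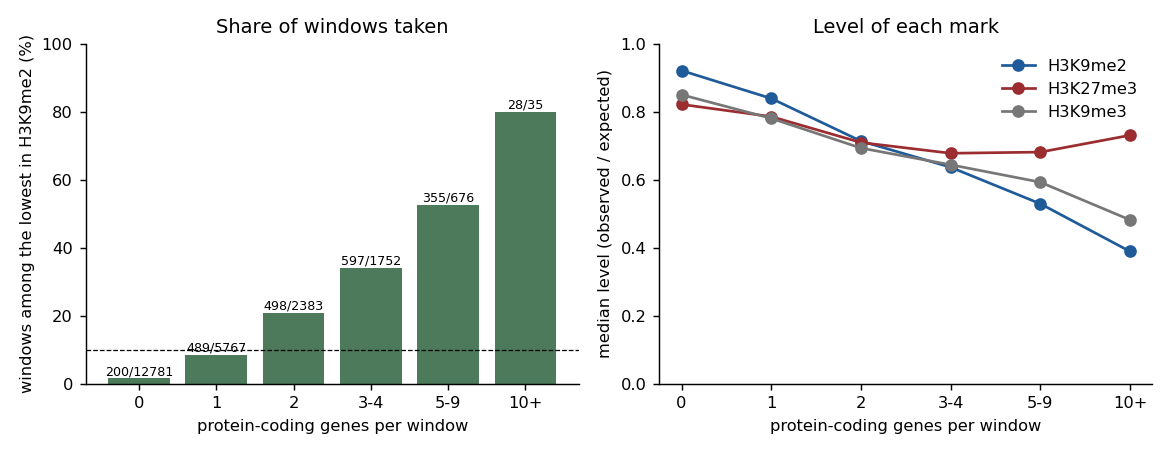
Percent of scored windows outside the distal segment of chromosome 17 that were low-H3K9me2 windows, and the median level of each mark (observed over expected reads), by the number of protein-coding genes per window, with a dashed line at the 10% of windows taken. The share rises from 1.56% without a gene to 80.0% with 10 or more, while the median H3K9me2 level goes from 0.922 to 0.389.

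Base composition moved with the choice as well. The median GC content was 45.8% in members outside the distal segment and 41.1% in the other windows, and 47.3% of these members held a CpG-rich tile against 11.2% of the other windows. Of all members, 31.1% had a GC content of at least 48%, against 6.05% of the other windows, and 24.7% were under 42%, against 58.3%. By chromosome the share of members ran from 3.61% on chromosome 1 to 18.0% on chromosome 11 (212 of 1181 windows), with 15.9% on chromosome 17 before the step. Gene number, GC content and level are linked across these windows, and their parts in the low levels cannot be told apart here.

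Members lay mostly alone or in short stretches. Outside the distal segment they formed 1076 runs of adjoining windows, of which 624 were single windows and 80 were of at least 5 windows. The 3 longest runs overall were all in the distal segment. Among them, chr17:82500001-86100000 spans 36 windows with 20 genes, including Thada and Mta3, a subunit of a nucleosome remodelling complex, and its H3K9me2 averaged 0.390 and 0.412, its H3K27me3 0.471 and 0.458, and its H3K9me3 0.397 and 0.410. Another was chr17:75800001-78500000 with 27 windows and 3 genes.

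The longest runs outside the segment, taken after the values were seen, were of another kind. The run at chr10:79100001-81100000 has 20 windows, 122 protein-coding genes and a GC content of 53.5%, and includes Dot1l, Sbno2 and Gng7, which encodes a subunit of a G protein. Its H3K9me2 averaged 0.305 and 0.359, its H3K27me3 0.721 and 0.685, and its H3K9me3 0.516 and 0.501. The run at chr11:115000001-116800000 has 18 windows and 73 genes, among them Grb2, an adaptor of receptor signalling, with 0.364 and 0.443 for H3K9me2. The run at chr11:96600001-98300000 has 17 windows and 53 genes, among them Cdk12, a kinase of RNA polymerase II, and Med1, a subunit of Mediator, with 0.364 and 0.440 for H3K9me2. In all 3, H3K9me2 was the lowest of the marks, an order that the choice of windows by low H3K9me2 favoured. Dnmt1 itself lies in such a run, chr9:20700001-22000000, with 13 windows and 50 genes, among them Smarca4, the ATPase of the BAF remodelling complex, and Carm1, an arginine methyltransferase.

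Genes of basic cell functions were common in low-H3K9me2 windows. The following counts give gene midpoints in low-H3K9me2 windows among the listed genes in scored windows, beside the 29.2% of all protein-coding genes. Of 22 housekeeping genes, 16 lay there (72.7%), among them Actb, Gapdh, Eef1a1 and Polr2a. Replication-dependent histone genes followed with 43 of 61 (70.5%) and genes of ribosomal proteins with 41 of 78 (52.6%). Neighbouring histone genes share windows, as Hox genes do, so these genes are not independent of each other.

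Polycomb genes were also above the share of all genes. The list of H3K9 methylation genes is too short to place its 40% clearly above that share. Genes of small RNA, DNA methylation and pluripotency were near it. Polycomb genes counted 15 of 27 (55.6%), among them Suz12, Ezh1, Ring1, Pcgf6 and Kdm2b. Of 20 genes of H3K9 methylation, 8 lay in low-H3K9me2 windows (40%), among them Ehmt1 and Ehmt2, the writers of H3K9me2, and Cbx1, Cbx3 and Cbx5, which encode the HP1 proteins. Small RNA genes counted 5 of 16 (31.2%), namely Dgcr8, Mov10, Tarbp2, Tnrc6c and Xpo5, and genes of DNA methylation 5 of 17 (29.4%), namely Dnmt1, Dnmt3b, Mbd3, Tet1 and Uhrf1. Pluripotency genes counted 7 of 21 (33.3%), among them Pou5f1 and Nanog, the core transcription factors of ESCs. Lineage genes counted 4 of 25 (16.0%), among them Cdx2, Hoxd13 and Mixl1.

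Receptor, keratin, protocadherin, cytochrome P450 and defensin genes lay below the share of all genes. Olfactory receptor genes were almost absent, with 12 of 1099 (1.09%). Keratin symbols gave 4 of 100 (4.00%), of which Krt8 and Krt18 are keratins of simple epithelia and Krtcap2 and Krtcap3 are not keratins. Protocadherins gave 1 of 24, vomeronasal receptors 37 of 276 (13.4%), cytochrome P450 genes 14 of 98 (14.3%) and defensins 9 of 53 (16.98%). Zinc finger genes with a Zfp symbol stood near the share of all genes, with 96 of 354 (27.1%). The vomeronasal receptors in low-H3K9me2 windows include Vmn1r119, described above, and its neighbours Vmn1r120 to Vmn1r129.

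**Figure D4:**
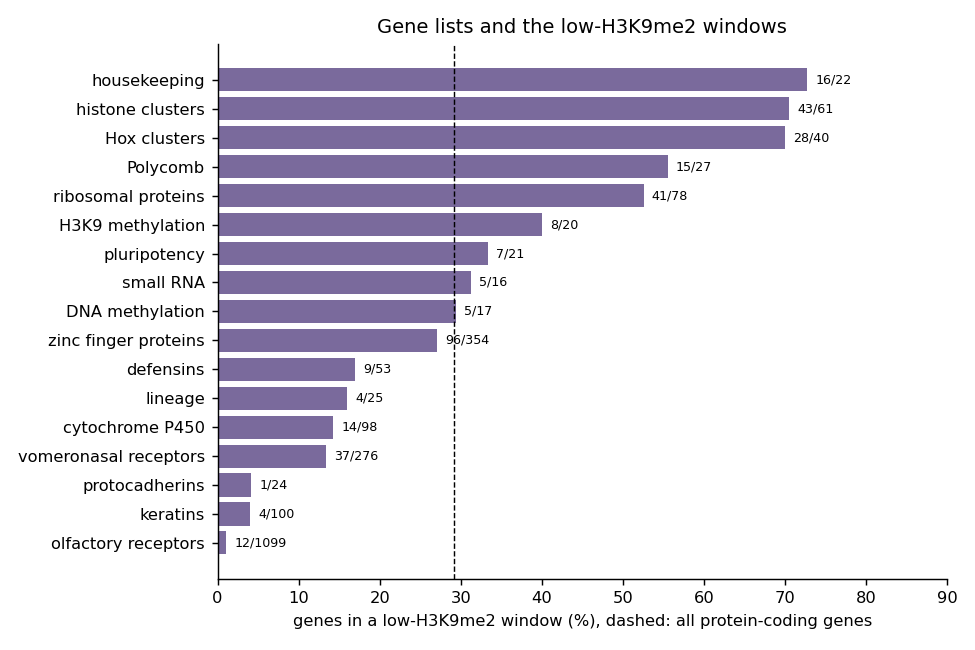
Percent of the genes of each list whose midpoint lay in a low-H3K9me2 window, with a line at the 29.2% of all protein-coding genes. Housekeeping genes (72.7%), histone genes (70.5%) and Hox genes (70.0%) stand highest and olfactory receptors (1.09%) lowest.

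Single genes of these lists show how the marks combined. Over the 4 tiles of Gapdh, a glycolytic enzyme, H3K9me2 stood at 0.090 and 0.100, H3K27me3 at 0.083 and 0.180, and H3K9me3 at 0.352 and 0.270, from 5 to 25 reads. Over Ehmt2 the levels were 0.169 and 0.277, 0.142 and 0.209, and 0.445 and 0.463, and over Suz12, a subunit of Polycomb repressive complex 2, they were 0.263 and 0.342, 0.151 and 0.225, and 0.365 and 0.348. These genes were poor in all 3 marks. Cdx2, a transcription factor of trophectoderm and hindgut, had as little H3K9me2, at 0.243 and 0.287, but H3K27me3 levels of 4.86 and 2.88. Hoxd13 had 7.16 and 4.64 for H3K27me3 beside 0.091 and 0.150 for H3K9me2. Ring1 stood out by H3K9me3, at 1.86 and 1.78, beside H3K9me2 levels of 0.426 and 0.566. Nanog had H3K9me3 levels of 0.958 and 0.660, above the 0.395 and 0.342 of Pou5f1.

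The genes deleted in these cells differed in place. Dnmt1 lay in a low-H3K9me2 window, with 109 and 199 H3K9me2 reads and levels of 0.279 and 0.416 over its 24 tiles, a log2 change of 0.58 (0.25 to 0.92). Its H3K27me3 levels were 0.203 and 0.247 and its H3K9me3 levels 0.409 and 0.363. Dicer1 lay outside, at 0.576 and 0.670 for H3K9me2. These reads do not show whether the alleles were deleted, since the deleted parts were not given in the labels.

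Start sites in low-H3K9me2 windows had less H3K9me2 than the sequence around them. Over 6063 start sites outside the distal segment, the mean H3K9me2 level was 0.416 and 0.484 at 20 kb upstream, 0.250 and 0.291 at the start site, and 0.410 and 0.474 at 20 kb downstream. In the other windows, with 14746 start sites, it was 0.799 and 0.821 at 20 kb upstream and 0.579 and 0.608 at the start. The mean H3K27me3 level of the members was 0.575 and 0.579 at 20 kb upstream, 0.581 and 0.515 at the start and 0.619 and 0.567 at 2 kb downstream. In the other windows it was 0.907 and 0.896 at 20 kb upstream, 1.19 and 1.02 at the start and 1.18 and 1.04 at 2 kb downstream. H3K9me3 went from 0.544 and 0.548 to 0.409 and 0.397 at the starts of the members.

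CpG-dense promoters were more frequent in the members and were less often high in H3K27me3. From 250 bases before to 50 bases after the start, at least 15 CG dinucleotides were found at 3618 of 6160 starts in low-H3K9me2 windows (58.7%), at 5784 of 14746 starts in the other windows (39.2%) and at 45.0% of all of them. The median was 18 CG in the members and 9 in the other windows. An H3K27me3 level of at least 2 in the tile of the start site was found at 363 starts of the members (5.89%) and at 2278 of the other windows (15.4%). Among starts with at least 15 CG it was found at 183 (5.06%) and at 1158 (20.02%). The promoters of Polr2a and Dot1l printed above are of the common kind in these windows, and that of Tlx2 is of the rarer kind.

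By the rule for genes, those wholly in low-H3K9me2 windows with at least 200 reads of a mark were ranked by level. Of 5490 genes wholly in these windows, 1877 had enough reads for H3K27me3 and 1641 for H3K9me3. A short gene with a low level falls below this minimum, so the lowest ranks compare long genes only. The 3 with most H3K27me3 encode developmental transcription factors, with 8.80 and 6.02 at Tlx2, 8.30 and 5.98 at Neurod2, a neuronal factor, and 7.99 and 5.40 at Hoxd11. The 3 with least were all in the distal segment of chromosome 17, namely Birc6, an inhibitor of apoptosis, at 0.085 and 0.147, Map4k3, a kinase, and Sos1, an exchange factor of RAS. For H3K9me3, high levels stood at Zfp629, a zinc finger gene, at 4.81 and 3.90 and Polrmt, the mitochondrial RNA polymerase, at 3.94 and 2.49. The lowest H3K9me3 was at Gm5796, Gm2974 and Gm3264, predicted genes on chromosome 14.

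Between the genotypes, low-H3K9me2 windows had a little more H3K9me2 in the Dicer KO/Dnmt1 cKO. Their H3K9me2 reads numbered 779533 and 1076687, which is a log2 change of 0.18 (0.177 to 0.186) per read of library depth, against -0.006 in the other windows. The level was higher in 2036 of 2360 members (86.3%) and in 46.2% of the other windows. The change was at least 1.25-fold upward in 401 members (16.99%), against 2.58% of all scored windows, and downward in 10 members (0.424%), against 0.072%. Members have fewer reads per window, so counting error alone spreads their changes more widely in both directions. No member changed by 2-fold or more in H3K9me2. Both H3K9me2 libraries chose the windows, so these values are a description.

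The higher H3K9me2 belonged mainly to members outside the distal segment of chromosome 17. There the pooled log2 change was 0.19 (0.190 to 0.199) and the median 0.20, and within the segment they were 0.03 (0.015 to 0.045) and 0.04. Over all scored windows in steps of 10% by H3K9me2 level, the median change went from 0.19 in the lowest step through 0.13, 0.06 and 0.01 to -0.06 in the highest. The median change of members with a GC content from 50% to 60% was 0.27 and that of the other windows of that GC content 0.17, and from 40% to 42% the values were 0.09 and -0.03. The change thus moved with both level and GC content, and which of them it follows was not tested. Among members outside the segment the nearly empty class with H3K9me2 under 0.3 had a median change of 0.04, against 0.21 in the rest.

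H3K27me3 differed between the genotypes in both directions within the members. Their pooled log2 change was 0.04 (0.036 to 0.043) and the median over windows 0.10. It was at least 1.25-fold upward in 363 members (15.4%), against 3.14% of all scored windows, and downward in 22 (0.932%), against 0.254%. By the level classes above, the median change was 0.22 where H3K27me3 was in its lowest 10%, 0.05 up to the median of all windows, -0.10 up to the highest 10% and -0.21 in the highest 10%. Members poor in H3K27me3 thus had more of it in the Dicer KO/Dnmt1 cKO and members rich in it had less. This was not particular to the members. In the other windows the 5th percentile of H3K27me3 was 0.375 and 0.421, and the 95th was 1.61 and 1.54. In windows chosen by H3K9me2 over the mean of the other 2 marks the pooled change was -0.08, and scaling to the median window gave 0.025. The classes used the levels of both libraries, and members with few reads vary more by counting alone.

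H3K9me3 stayed nearly level. The pooled log2 change of the members was 0.005 (0.001 to 0.009) and the median 0.009. A level at least 1.25-fold higher was found in 9 members (0.381%), against 0.182% of all scored windows, and one as much lower in 19 (0.805%), against 0.161%. These shares are small, and members also hold fewer reads per window. Choosing the lowest 5% of windows gave -0.007, so the sign of the pooled value is not settled.

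**Figure D5:**
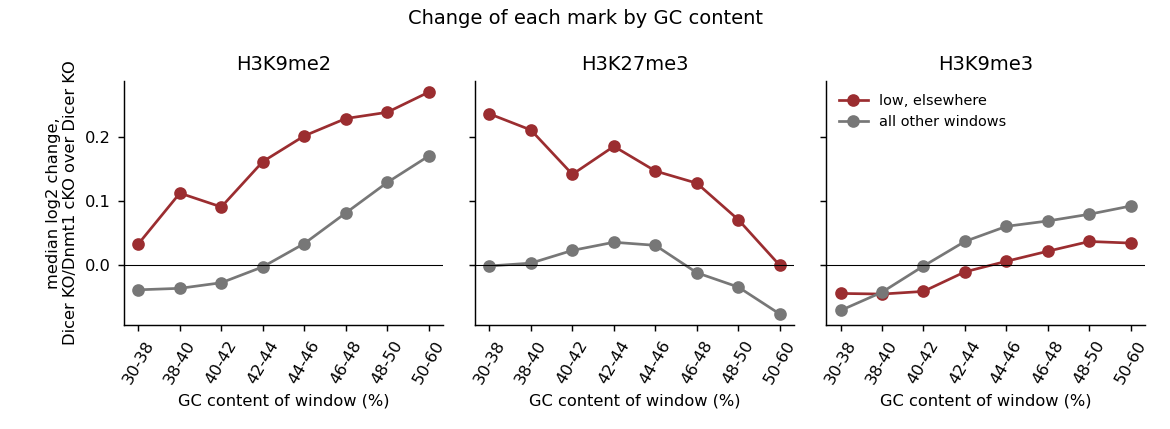
Median log2 change of each mark from Dicer KO to Dicer KO/Dnmt1 cKO (y axis) by the GC content of the window in percent (x axis), for low-H3K9me2 windows outside the distal segment of chromosome 17 and for the other windows. At every GC content the members lie above the other windows for H3K9me2 and H3K27me3, for example 0.27 against 0.17 for H3K9me2 at a GC content from 50% to 60%.

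Windows named by the rule show the size of the largest changes. The largest upward change of H3K9me2 was at chr11:94800001-94900000, from 0.366 to 0.606 (300 and 607 reads, log2 change 0.73, 0.53 to 0.93), a window with Col1a1, the main collagen of bone, and Ppp1r9b. That of H3K27me3 was at chr17:75000001-75100000 with Birc6, from 0.072 to 0.140 (88 and 143 reads, 1.05, 0.67 to 1.44), which is the only member past 2-fold in any mark. The next was at chr10:99900001-100000000 with Cep290, a ciliary gene, from 0.173 to 0.301 (0.81, 0.56 to 1.06). The largest downward changes of H3K27me3, -0.66 (-1.02 to -0.29) at chr14:4900001-5000000 and -0.53 at chr14:8300001-8400000, and of H3K9me2, -0.46 (-0.84 to -0.07) at chr12:23200001-23300000, were in windows with few reads. The window of Birc6, with the largest upward change of H3K27me3, also had few reads. For H3K9me3 the extremes were 0.60 (0.11 to 1.09) at chr14:3200001-3300000 and -0.60 (-0.95 to -0.25) at chr5:95600001-95700000. These windows had few H3K9me3 reads as well, 55 and 87 in the first and 161 and 111 in the second.

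Among the genes wholly in low-H3K9me2 windows with at least 200 reads of the mark, the H3K9me2 change was largest at Rufy2, an endosomal protein gene, from 0.264 to 0.479 (86 and 192 reads, 0.87, 0.51 to 1.24). Gbas followed with 0.81 (0.43 to 1.19) and Crcp, a subunit of RNA polymerase III, with 0.79 (0.39 to 1.19). Downward the values were smaller, with -0.49 (-0.86 to -0.12) at Gm2382 and -0.33 (-0.71 to 0.06) at Matn4, a matrix protein gene, whose interval includes 0. Of the listed genes, Pcgf6, a subunit of a Polycomb complex, changed by 1.15 (0.48 to 1.83) from 24 to 65 reads, Tet1, an enzyme of DNA demethylation, by 0.45 (0.24 to 0.65), and Suz12 by 0.39 (0.01 to 0.77).

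For H3K27me3 the genes moved by up to about 1 on the log2 scale in each direction. The upward extremes were Ccdc45 at 0.98 (0.59 to 1.37), Iqcb1, a ciliary gene, at 0.93 (0.56 to 1.30) and Luc7l2, a splicing factor gene, at 0.85 (0.49 to 1.21). The downward extremes were Prrt3 at -0.95 (-1.31 to -0.60), Tmem200b at -0.92 with levels of 5.34 and 2.82, and Trp53i13 at -0.92 (-1.32 to -0.52). Cdx2 changed by -0.76 (-0.98 to -0.54). For H3K9me3 the extremes were Vps37b, a subunit of the ESCRT-I complex, at 0.66 (0.32 to 1.01) and Kpna6, a nuclear import receptor, at -0.68 (-1.08 to -0.28). Polrmt changed by -0.66 (-0.88 to -0.44), from 419 to 276 H3K9me3 reads. These genes were ranked by their change among many, so the extremes may hold large counting errors.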

How the data were processed

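ChIP-seq reads were trimmed (Trim Galore), aligned to NCBIM37 (Bowtie2) and kept at a mapping quality of at least 20 by the authors, who deposited for every 2 kb tile the log2 of its reads over the number expected. The methods name 1 kb tiles. Removal of duplicate reads is not stated for ChIP-seq. Only the 6 columns that match a sample were used, and 19 others were left aside.

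The antilog of the deposited log2 values gives whole reads, and tiles without reads stand at 0.9 of a read. Levels are sums of the antilog over the kept tiles divided by their number. Of 1236182 autosomal tiles 63449 were left out, and 54 autosomal tiles had a log2 value above 4. Changes are log2 ratios of summed reads per library depth. Chromosome lengths matched the NCBIM37 reference for 22 chromosomes, and GENCODE vM1 gave 22380 protein-coding genes. A gene belonged to the window of its midpoint, a promoter to that of its start.

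No test was made, since each mark has 1 library per genotype, and intervals are Poisson 95% intervals for counting error. Windows named are the 3 lowest in H3K9me2, the 2 on either side of the limit, the 3 longest runs, the 3 highest and lowest of each other mark and the 2 largest rises and falls of each mark. Genes named by rank have at least 200 reads of the mark and lie wholly in low-H3K9me2 windows: the 3 highest and lowest of H3K27me3 and H3K9me3, and the 3 largest rises and falls of each mark. Members of the lists were named without these 2 conditions, and some of them have few reads or lie outside low-H3K9me2 windows. Some of the genes and windows that the rules name are not reported here. The members and lists were chosen with earlier results of these data known, and the separation of distal chromosome 17 was chosen after seeing the data. Alternatives varied the share of windows, the library that chose them, the tiles kept, the window start, the scaling and the summary. Python 3.11.15, numpy 2.4.6, pandas 2.3.3, scipy 1.17.1 and matplotlib 3.10.9 were used, and scripts were tested on simulated data.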

Additional observations from a re-analysis of the deposited data

How the results depend on the processing

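No paired analysis was possible because only 1 library stands for each genotype. Each result was recomputed under up to 13 alternatives, which gave 74 values. Of these 28 stayed within the counting interval of the main value or, for genes per window, within 1.5 times of it, 40 moved further without a change of sign, and 6 turned the sign. Genes per window ran from 1.805 to 2.92 over 9 alternatives, beside 2.58. The main values were log2 levels against the other windows of -0.89 for H3K27me3 and -0.68 for H3K9me3, log2 changes of 0.18 (H3K9me2), 0.04 (H3K27me3) and 0.005 (H3K9me3), and a GC content of 45.4%. The values that moved follow in that order of results.

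With the lowest 5% of windows, the levels were -1.05 and -0.81, the H3K9me2 change 0.19, the H3K9me3 change -0.0068 and the GC content 45.7%. With the lowest 20%, the levels were -0.74 and -0.51, the H3K9me2 change 0.15, the H3K27me3 change 0.035 and the GC content 44.6%. Chosen on the Dicer KO library alone, the windows had levels of -0.86 and -0.68, an H3K9me2 change of 0.21, an H3K9me3 change of 0.011 and a GC content of 45.7%. Chosen on the Dicer KO/Dnmt1 cKO library alone, they had -0.90 and -0.66, 0.15, an H3K9me3 change of -0.00074 and 45.1%. The H3K9me2 change thus kept its sign whichever library chose the windows. With tiles at the minimum kept, the levels were -1.64 and -1.39, the changes 0.17, 0.032 and -0.0066 and the GC content 45.0%. With tiles above 4 kept, the levels were -0.90 and -0.76. Shifting the windows by 50 kb gave an H3K27me3 level of -0.89 and a GC content of 45.4%.

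Choosing windows by H3K9me2 over the mean of the other marks gave levels of 0.71 and 0.0081, changes of 0.086, -0.084 and 0.045, and a GC content of 47.5%. This alternative by its construction prefers windows rich in the other marks. Scaling to a median ratio of 0 or by TMM gave H3K27me3 changes of 0.025 and 0.024. Medians over windows gave changes of 0.19, 0.10 and 0.0085, and an H3K27me3 level of -1.08. Without the distal segment of chromosome 17, an alternative added after seeing the data, the levels were -0.86 and -0.65, the H3K9me2 change 0.19 and the GC content 45.8%. The causes of these shifts were not tested. A single window with few reads has a wide counting interval, so depth limits what single windows show.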
